A study of Homo sapiens with 2 samples.

Results

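The G1 control genes read here were the D-type cyclins CCND1 and CCND3, their kinases CDK4 and CDK6, the CDK inhibitors CDKN1A, CDKN1B, CDKN1C, CDKN2C and CDKN2D, and RB1. They were taken as every probe set whose only gene symbol in the platform annotation was one of these 10 genes. In all, 9 of the 10 genes had such a probe set, and they were read by 26 of the 49495 probe sets. CDKN2C had none in the annotation used and was not analysed here. The cells were MDA-MB-231, an established human breast carcinoma line of mesenchymal character without hormone receptors. They were grown in medium with 5.6 mmol/L glucose and harvested 48 h after passage, in both groups alike. The control group was 1 array of parental cells, and the other group was 1 array of a clone in which UGT8, the ceramide galactosyltransferase gene, was stably knocked down. The sources used here give neither the reagent nor a vector control, and the effect of UGT8 knockdown and the traits of 1 clone cannot be told apart.

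D-type cyclins are made in response to growth factors and bind CDK4 or CDK6, and the active kinase phosphorylates the retinoblastoma protein RB. RB in its unphosphorylated form holds E2F transcription factors inactive, and its phosphorylation lets cells leave G1 for S phase. INK4 proteins bind CDK4 and CDK6 directly, whereas CIP/KIP proteins bind cyclin-CDK complexes and inhibit CDK2 in particular.

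Each value below is a log2 RMA level of a probe set, and each difference is the knockdown array minus the control array. With 1 array in each group no difference has a replicate check, and there are no tests or p-values. An SD is over probe sets of 1 gene on the same arrays and is no replicate error. The probe set of highest mean level stands for a gene. The floor is the median of the mean levels over all non-control probe sets (6.64). Past it lay 10439 genes, among them all 9 of the measured G1 control genes. Of their 26 probe sets, 23 lay past the floor. Fewer cells carrying a transcript and less of it per cell cannot be told apart in bulk RNA.

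The brightest UGT8 probe set read 8.95 in control and 6.61 in knockdown cells (-2.34), so the arrays matched their labels. All 6 markers fixed as present in MDA-MB-231 lay past the floor, VIM at 13.9 on both arrays among them. Of the 8 markers fixed as absent or low, ESR1, PGR, KRT5 and KRT14 lay below the floor, and ERBB2, CDH1, EPCAM and GATA3 did not. Of markers of other cell types with a probe set, 2 of 5 in the leukocyte list (CD14 and HBB, the latter an erythroid gene), 2 of 5 endothelial and 2 of 6 fibroblast genes lay past the floor. The summed level of each list went from 8.69 to 8.34, from 9.26 to 8.61 and from 9.61 to 8.66, with PTPRC, which defines leukocytes, below the floor on both arrays (3.56 and 3.40). ACTB read higher at its 3′ than at its 5′ end by 0.49 in control and 0.90 in knockdown cells, and GAPDH by 0.18 and 0.19. The part of these readings in the results below was not tested.

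At a 1.5-fold difference, 2 of the 9 genes stood out, 1 in each direction. CDK4 was 1.59-fold higher on the knockdown array and CDKN1C, which encodes the inhibitor p57, was 1.69-fold lower. Over all genes past the floor, 11.7% differed by at least 1.5-fold, 4.96% being higher and 6.74% lower. The 9 genes had a median difference of -0.022, against 0.028 over all genes past the floor. Their median size of difference, without regard to sign, was 0.29, against 0.22 over all genes. As a set, the genes thus lay near the typical gene, and the differences lay in single members. On the deposited scale 4 of the 9 were above 0, against 53.5% of all genes, and 1 of the 9 was above 0, against 7.11%, when the arrays were centred on their hybridisation controls.

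**Figure D1:**
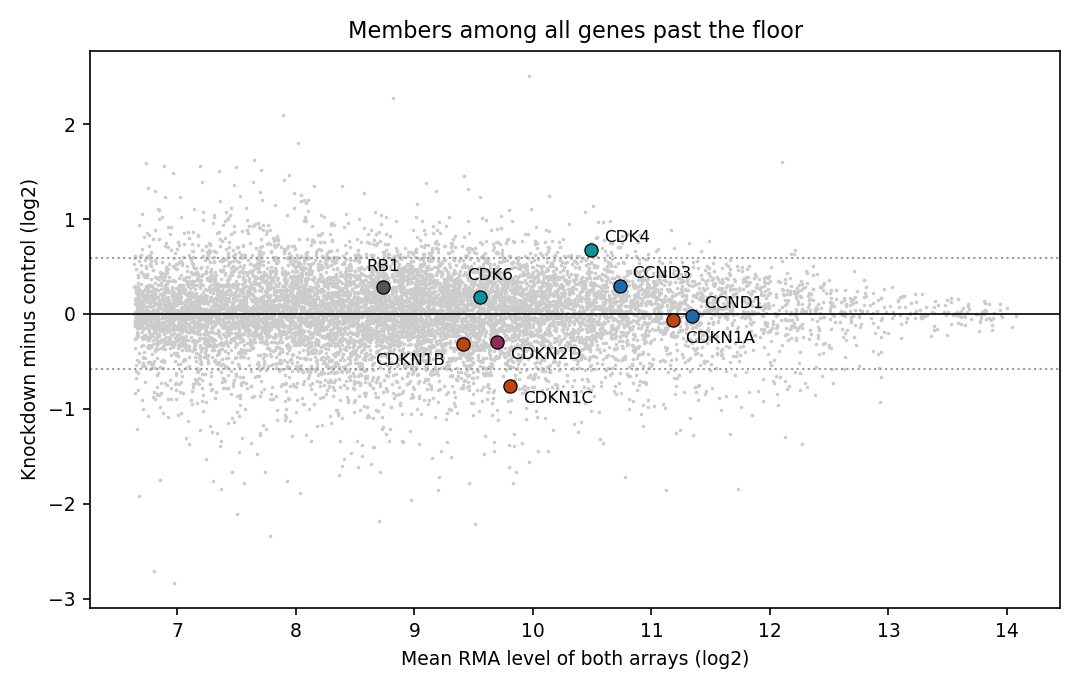
Difference between the arrays (knockdown minus control, log2) against the mean level of both arrays (log2) for the brightest probe set of each of 10439 genes past the floor (grey points). Coloured points mark the 9 measured genes and dotted lines mark 1.5-fold; CDK4 (0.67) lies above the upper line and CDKN1C (-0.76) below the lower line, on the deposited scale.

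The scale bears on these signs. The RNAs spiked in at hybridisation gave a median difference of 0.51, and the poly-A RNAs, spiked in before labelling, one of 0.075. Centred on the hybridisation controls, every difference here drops by 0.51, and the median gene lies at -0.48. On that scale CCND3 (-0.22), CDK6 (-0.33) and RB1 (-0.23) turned from above 0 to below it. CDK4 stayed above 0 (0.16). The 4 inhibitors measured were already below 0 on the deposited scale, so a drop of all values could not change their sign. None of the 9 was at least 1.5-fold higher there and 3 were lower by that much, CDKN1C, CDKN1B and CDKN2D. Of all genes, 37.5% differed by at least 1.5-fold on that scale, 0.479% being higher and 37.1% lower. Differences between genes, such as the 1.43 between CDK4 and CDKN1C, are the same on both scales. Centred on the poly-A controls instead, CCND3 (0.22), CDK6 (0.11) and RB1 (0.20) stayed above 0, so their sign depends on the controls chosen.

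**Figure D2:**
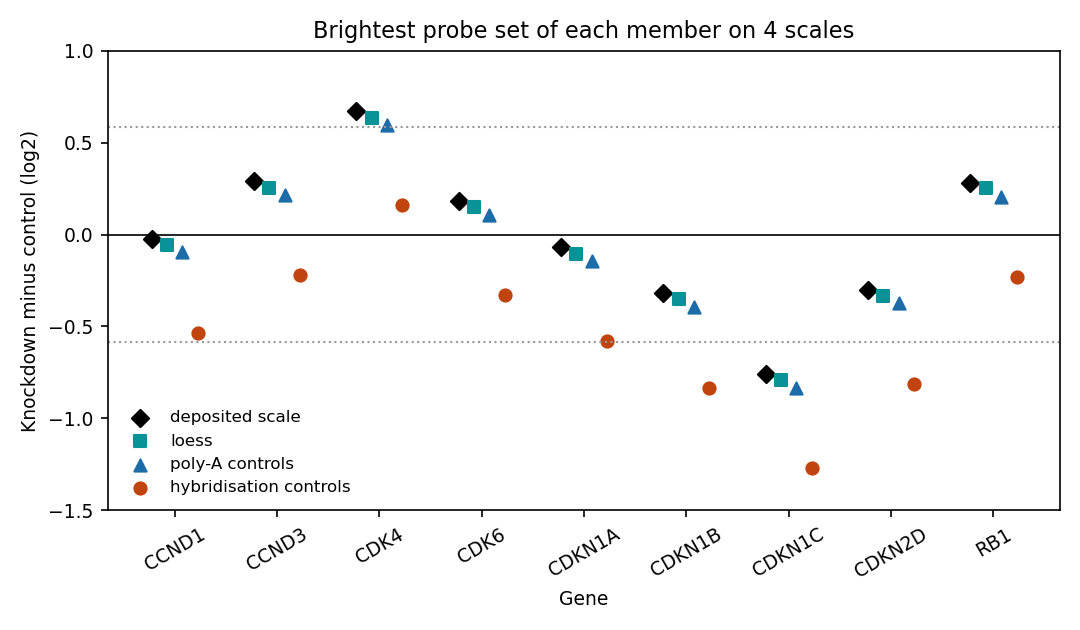
Difference (knockdown minus control, log2) in the brightest probe set of each gene on the deposited scale and after loess centring, centring on the poly-A controls and centring on the hybridisation controls. CDK4 is above 0 on all 4 scales, while CCND3, CDK6 and RB1 change sign on the hybridisation scale. The inhibitors CDKN1A, CDKN1B, CDKN1C and CDKN2D are below 0 on the deposited scale. Each centring lowers the values shown, so the inhibitors could not change sign. Dotted lines mark 1.5-fold.

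The D cyclin genes differed little. CCND1 encodes cyclin D1, the D cyclin most often amplified in breast cancer. Its brightest probe set read 11.35 in control and 11.33 in knockdown cells (-0.022). The others read 9.15 and 9.28 (0.14), 8.92 and 8.93 (0.0035), and 8.81 and 8.84 (0.028). Their mean was 0.036 ± 0.070 (SD over 4 probe sets), so no direction can be given for CCND1. CCND3, which encodes cyclin D3, read 10.59 and 10.88, a difference of 0.29 or 1.22-fold, turned to -0.22 on the hybridisation scale. Its other probe set read 3.86 and 3.75, below the mean of the background probe sets (4.73 on either array), so CCND3 rests on 1 informative probe set. Cyclin D2 (CCND2) is no member of the set and is given for completeness. Its brightest probe set read 10.87 and 11.16 (0.28), and its dimmer ones differed by 0.71 and 0.52. No D cyclin gene was lower by more than 0.022 in its brightest probe set on the deposited scale, and each was below 0 on the hybridisation scale.

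CDK4 and CDK6 encode the closely related kinases that pair with D cyclins. CDK4 had 4 probe sets past the floor. They read 10.16 in control and 10.83 in knockdown cells, 10.13 and 10.82, 10.06 and 10.70, and 9.17 and 9.73. All of them were above 0 on the deposited scale, and their differences ran from 0.56 to 0.69, with a mean of 0.64 ± 0.057 (SD over 4 probe sets). Of these, 3 were at least 1.5-fold higher and the remaining one was 1.47-fold higher. The difference of the brightest exceeded that of 96.8% of genes past the floor. On the hybridisation scale CDK4 was higher by 0.16 only. CDK6 read 9.46 and 9.64 in its brightest probe set, 8.42 and 8.57 in the next, 7.70 and 8.01 in the third and 5.04 and 5.55 in one below the floor. All 4 were above 0 on the deposited scale, by 0.15 to 0.52, and the brightest gave 0.18, or -0.33 on the hybridisation scale. The smallest CDK4 difference (0.56) lay above the largest of CDK6 (0.52, in the probe set below the floor). These 2 values lay closer than the median SD between probe sets of 1 gene (0.083), so no separation of the kinases is read from them.

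**Figure D3:**
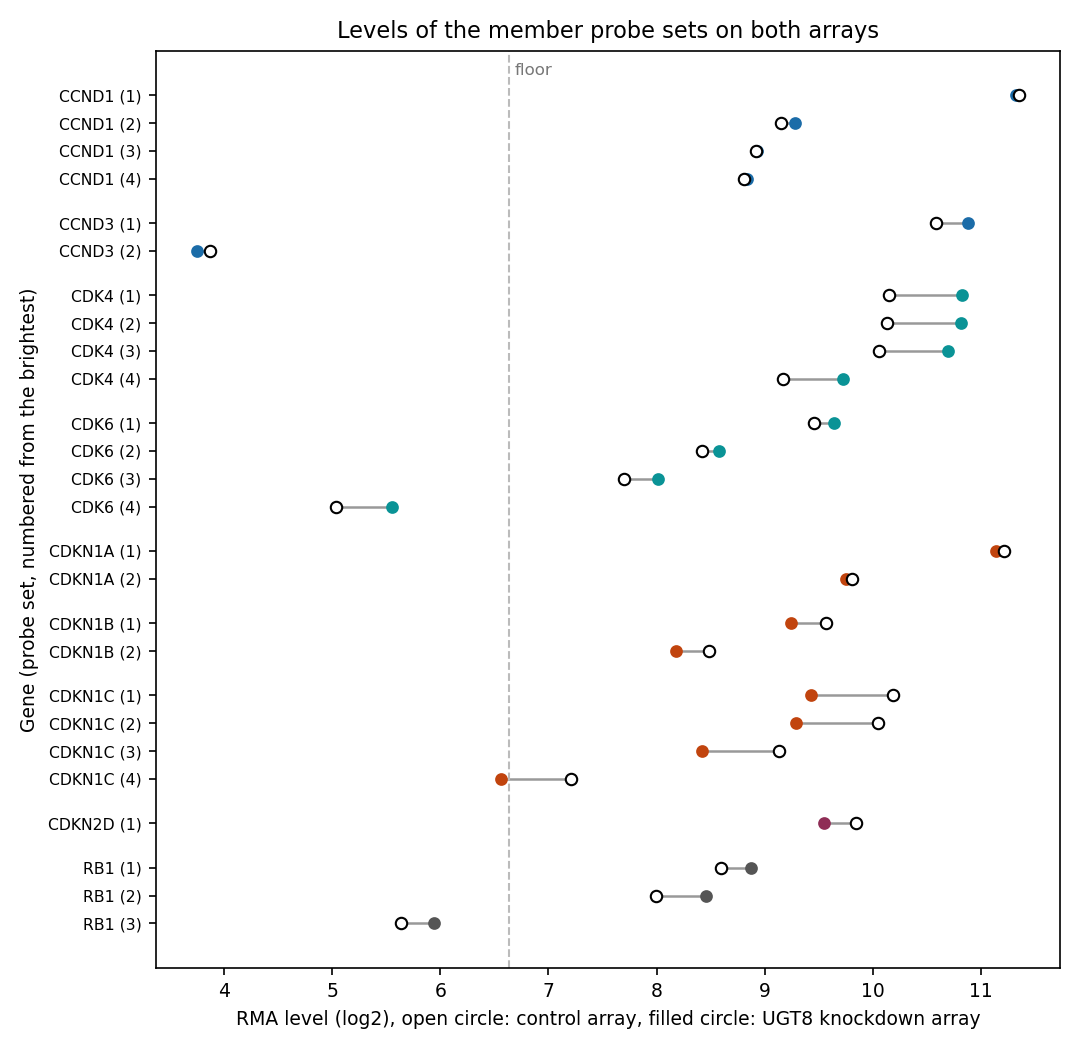
RMA level (log2) of each of the 26 probe sets on the control array (open circles) and the UGT8 knockdown array (filled circles), numbered within a gene from the brightest; the dashed line is the floor (6.64). The 4 CDK4 probe sets lie to the right on the knockdown array and the 4 CDKN1C probe sets to the left, with CCND1 and CDKN1A almost unmoved on this deposited scale.

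The stretch before the CDK4 start site is printed because CDK4 was the kinase gene with the larger difference. CDKN1B and CDKN2D, both below 0 but within 1.5-fold on the deposited scale, were picked from the inhibitor genes with a window for comparison. Windows of CDKN1A and CDKN2C were found too and are not printed. The stretches of CDKN1B and CDKN2D are printed beside that of CDK4. Each is the 250 bases upstream of a start site in RefSeq's GRCh38.p14 annotation, with the E-box letters CACGTG in capitals. The letters were chosen after the sequences were seen. CACGTG is the site that MYC with MAX, and other helix-loop-helix factors, are known to bind, and CDK4 is known as a MYC target. The windows lie at chr12:57752311-57752560 on the minus strand (CDK4), chr12:12717118-12717367 on the plus strand (CDKN1B) and chr19:10568980-10569229 on the minus strand (CDKN2D).
CDK4: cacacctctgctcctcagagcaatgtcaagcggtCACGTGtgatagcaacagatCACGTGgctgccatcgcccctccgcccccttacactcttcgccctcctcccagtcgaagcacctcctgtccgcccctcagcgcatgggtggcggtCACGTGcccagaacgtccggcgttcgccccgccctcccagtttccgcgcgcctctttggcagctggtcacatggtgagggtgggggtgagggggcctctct
CDKN1B: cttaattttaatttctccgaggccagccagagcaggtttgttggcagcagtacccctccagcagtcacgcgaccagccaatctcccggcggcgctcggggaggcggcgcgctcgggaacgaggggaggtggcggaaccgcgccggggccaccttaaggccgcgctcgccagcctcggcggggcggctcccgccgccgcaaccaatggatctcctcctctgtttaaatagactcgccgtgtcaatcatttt
CDKN2D: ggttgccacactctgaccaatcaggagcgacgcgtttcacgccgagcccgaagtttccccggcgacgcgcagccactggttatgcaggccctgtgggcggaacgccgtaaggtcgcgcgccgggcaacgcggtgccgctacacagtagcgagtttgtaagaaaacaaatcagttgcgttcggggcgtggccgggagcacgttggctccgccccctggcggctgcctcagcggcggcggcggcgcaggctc
The CDK4 window held CACGTG 3 times, starting 216, 196 and 101 bases upstream of the start site. Among all 35116 windows of this length, 6.34% held CACGTG at least once and 0.0797%, or 28 windows, at least 3 times. The word reads the same on both strands. The CDKN1B and CDKN2D windows did not hold these letters. RefSeq windows were found for 8 of the 10 genes, 13 windows in all, and CCND1 and CDKN1C had none. The RB1 window lay at chr13:48476200-48476449, with 36.8% G and C. Whether its start site is the main one of RB1 was not checked, so its letters may not be those of the main RB1 promoter. Start sites outside these windows were not searched, so a missing word holds for the windows only. Beside CDK4, only 2 of the 3 windows of CDKN2C held CACGTG, once each. The E2F words TTTGGCGC, TTTCGCGC, TTTCCCGC and TTTGCCGC, searched on both strands, were in none of the 13 windows and in 2.79% of all windows. The GC box letters GGGCGG, searched likewise, came 3 times in the CDK4 window, once in that of CDKN1B and 2 times in that of CDKN2D, and 42.6% of all windows held them. No match of one word overlapped a match of another in the CDK4, CDKN1B and CDKN2D windows. A match is a description of these letters and was not tested for binding.

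Of the 4 inhibitor genes measured, CDKN1C was lower by at least 1.5-fold on the deposited scale, and CDKN1A, CDKN1B and CDKN2D differed by less than that. CDKN1C encodes p57, an inhibitor of cyclin-CDK complexes from an imprinted locus. Its 4 probe sets read 10.19 in control and 9.43 in knockdown cells, 10.05 and 9.29, 9.13 and 8.42, and 7.21 and 6.56. All were lower on the knockdown array by at least 1.5-fold, with differences from -0.76 to -0.65 and a mean of -0.72 ± 0.052 (SD over 4 probe sets). The 2 brightest gave the same difference to 3 decimals, so they may not be independent readings. The brightest CDKN1C difference lay below that of 96.2% of genes past the floor. The dimmest probe set ended just under the floor (6.56), and at -0.65 it gave the smallest difference of the 4.

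CDKN1B encodes p27, which restrains CDK2 and also helps assemble cyclin D with CDK4. It read 9.57 and 9.25 in 1 probe set and 8.48 and 8.18 in the other, differences of -0.32 and -0.31. The knockdown array thus held 80.1% of the control signal in the brighter probe set, short of the 1.5-fold mark. CDKN1A encodes p21, the inhibitor induced by p53. Its probe sets read 11.21 and 11.15, and 9.81 and 9.76, differences of -0.067 and -0.058. Both are somewhat smaller in size than the median SD between probe sets of 1 gene (0.083). That SD is no replicate error, so whether CDKN1A differs between the groups was not tested. CDKN2D encodes p19, an INK4 inhibitor of CDK4 and CDK6. It was read by 1 probe set, at 9.85 and 9.55, a difference of -0.30. On the hybridisation scale the inhibitor differences were -1.27 for CDKN1C, -0.83 for CDKN1B, -0.81 for CDKN2D and -0.58 for CDKN1A.

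The INK4 genes CDKN2A and CDKN2B, no members of the set, lay below the floor in all of their probe sets. Their brightest read 5.55 and 5.34 (CDKN2A), and 4.44 and 4.50 (CDKN2B). CDKN2A is known to be deleted in MDA-MB-231 cells. Of the INK4 inhibitors read here, CDKN2D was the one past the floor.

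RB1 encodes the protein that the kinases phosphorylate. Its probe sets read 8.60 and 8.88, 7.99 and 8.46, and 5.63 and 5.94, the last below the floor. All 3 were above 0 on the deposited scale (0.28, 0.46 and 0.31) and within 1.5-fold, and the brightest read -0.23 once centred on the hybridisation controls. Of its relatives, RBL1, which encodes p107, differed by 0.25 and RBL2, which encodes p130, by -0.48 in the brightest probe set. All 4 RBL2 probe sets were below 0 and all 3 of RBL1 above 0 on the deposited scale. On the hybridisation scale the brightest probe sets of RB1, RBL1 and RBL2 were all below 0, since each drops by 0.51.

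**Figure D4:**
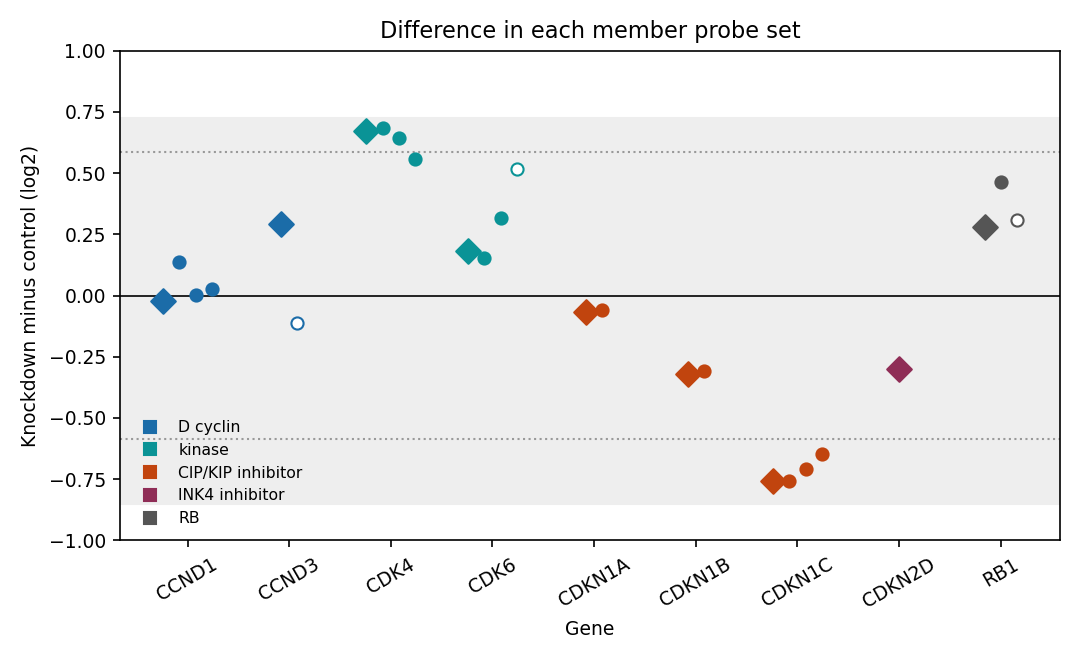
Difference (knockdown minus control, log2) in each probe set of the 9 measured genes, coloured by role; diamonds are the brightest probe set of a gene, open symbols lie below the floor, dotted lines mark 1.5-fold and the grey band holds the central 95% of genes past the floor (-0.85 to 0.73). The inhibitor probe sets all lie below 0 and the CDK4 and CDK6 ones above it on the deposited scale. On the hybridisation scale every point lies 0.51 lower, and the CDK6 probe sets past the floor turn below 0.

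Set side by side by role, the cyclin and kinase genes had a median of 0.24 (range -0.022 to 0.67, 4 genes) and the inhibitor genes a median of -0.31 (-0.76 to -0.067, 4 genes). The medians were 0.55 apart on the deposited scale and, by construction, on every scale that shifts all values alike. The ranges did not overlap but lay only 0.045 apart, between CCND1 and CDKN1A, less than the median SD between probe sets of 1 gene. Of the 14 cyclin and kinase probe sets, 12 were above 0 on the deposited scale, the others being the brightest of CCND1 (-0.022) and the dim one of CCND3 (-0.11). All 9 inhibitor probe sets were below 0 there. Of all genes past the floor, 53.5% were above 0 on that scale. On the hybridisation scale the 9 stayed below 0, as the drop of 0.51 fixes, and 7.11% of all genes were above 0. The probe sets come from 4 genes in each role, share the same arrays and are not independent readings. The highest inhibitor probe set (-0.058) lay above the dim CCND3 probe set, so at that level the roles overlapped.

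In order of difference the genes ran CDK4 (0.67), CCND3 (0.29), RB1 (0.28), CDK6 (0.18), CCND1 (-0.022), CDKN1A (-0.067), CDKN2D (-0.30), CDKN1B (-0.32) and CDKN1C (-0.76). CCND3 and RB1 (0.012 apart), CCND1 and CDKN1A (0.045) and CDKN2D and CDKN1B (0.020) lay closer than the median SD between probe sets (0.083). No order is read within these pairs. CDK4 stood 0.38 above its nearest neighbour and CDKN1C 0.44 below its own. That SD covers probe sets on the same arrays, so whether these gaps exceed the spread between cultures was not tested. All probe sets past the floor lay on the same side of 0 in 6 of the 7 genes that had 2 or more, CCND1 being the exception. Over all 6067 genes with 2 or more the share was 77.6%. Of the 23 probe sets past the floor, 7 differed by at least 1.5-fold, against 11.7% of all probe sets past the floor. These 7 belonged to CDK4 and CDKN1C alone.

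A further list held the RB relatives, the E2F factors, the genes of the DREAM complex and related factors such as FOXM1. Of its 19 genes with a probe set, 17 lay past the floor, and 12 of the 17 were within 1.5-fold on the deposited scale. The other 5 were at least 1.5-fold higher, against 4.96% of all genes, and none was lower by that much, against 6.74%. Above 0 lay 14 of the 17, against 53.5% of all genes, and RBL2 (-0.48), E2F5 (-0.35) and E2F7 (-0.079) lay below it. The list median was 0.40, against 0.028 over all genes. On the hybridisation scale the median was -0.11, against -0.48 over all genes. There 7 of the 17 were above 0, against 7.11% of all genes, and none was 1.5-fold higher. This list and those below were chosen with earlier results of these data known, so such shares describe the lists and test nothing. E2F1, an activator of S-phase genes, went from 7.40 to 8.44 (1.04). TFDP1, the dimer partner of E2F proteins, went from 10.38 to 11.13 (0.75), though 1 of its 5 probe sets was below 0. E2F8, a repressing E2F, differed by 0.68, TFDP2 by 0.61 and FOXM1, a factor of G2/M genes, by 0.60.

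Cyclin E takes over from cyclin D late in G1. The list of cyclin E, cyclin A and CDK2 genes held 5 genes, CDC25A among them. Of these, CCNE2 (2.09), CDC25A (1.80) and CCNE1 (1.16) were at least 1.5-fold higher on both the deposited and the hybridisation scale. The shares of all genes were 4.96% and 0.479%. As the list was chosen with earlier results known, these shares are no test. CCNE1 went from 8.44 to 9.60 in its brightest probe set and differed by 0.53 in its dimmer one. CDK2, the kinase partner of cyclin E, read 9.60 and 9.65 (0.048), and CCNA2, which encodes cyclin A2, read 10.09 and 10.05 (-0.044). In their brightest probe sets the cyclin E genes thus differed by more than CCND1, CCND2, CCND3, CDK4 or CDK6, whereas CDK2 differed by less than CDK4.

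None of the 5 genes of the CDK-activating kinase and of CDK assembly differed by 1.5-fold (median 0.088, or -0.42 on the hybridisation scale). CDC37, the cochaperone that loads CDK4 onto HSP90, read 10.44 and 10.95, a difference of 0.50, just under 0 on the hybridisation scale. Genes of the turnover of D cyclins and p27 were mixed. Of 16 past the floor, 8 were above 0 and 8 below on the deposited scale, with a median of 0.024, and 1 was at least 1.5-fold higher and 2 lower, against 4.96% and 6.74% of all genes. On the hybridisation scale 1 was above 0, against 7.11%. DTL, the substrate receptor that targets p21 for degradation in S phase, was 2.55-fold higher (7.71 and 9.06). FBXW7, the substrate receptor for cyclin E, was 1.64-fold lower (8.94 and 8.23), and all 3 of its probe sets were below 0. FBXW8, reported as a receptor for cyclin D1, differed by -0.62, with its probe sets between -0.70 and 0.14. SKP2, the receptor for p27, lay below the floor on mean level and read 6.14 and 6.86 (0.73).

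**Figure D5:**
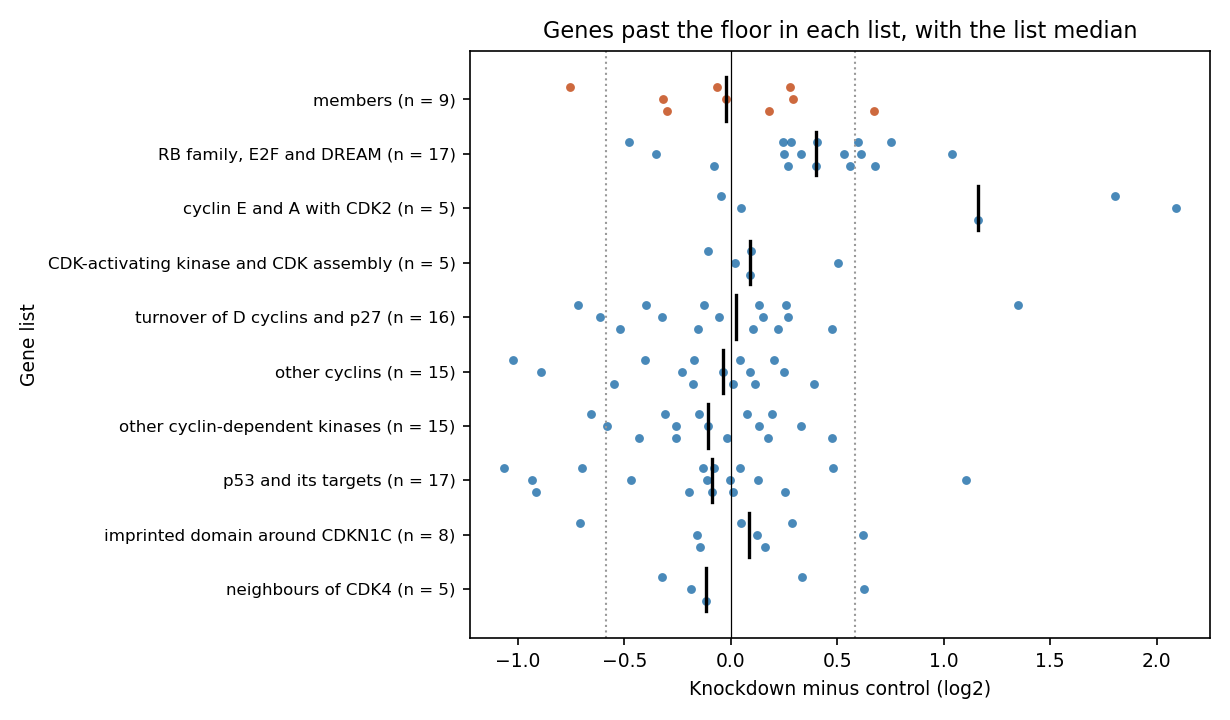
Difference (knockdown minus control, log2, deposited scale) of each gene past the floor in the measured set (orange) and in 9 lists of related genes (blue), with n genes in each; black bars are list medians and dotted lines mark 1.5-fold. The measured genes have a median of -0.022 and the RB, E2F and DREAM list one of 0.40; on the hybridisation scale every point lies 0.51 lower and the latter median is -0.11.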

How the data were processed

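Total RNA of 2 cultures, 1 in each group, was labelled with biotin and hybridised to Affymetrix arrays, per the labels' protocols. The deposited values are log2 RMA levels of probe sets, per the submitters' processing notes. RMA corrects background, normalizes between arrays and summarises probes, so a shift common to most transcripts is removed. The RMA software and the genome build were not given in the sources used here, and the array values carry no coordinates. Both arrays were read from the same table, and their number limits the precision.

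The table held 49495 probe sets. The platform annotation gave 1 symbol to 45278, several to 1333 and none to 2782, and 102 are controls. Symbols were updated through RefSeq, which held 18201 of 18244. Probe sets marked _s_at or _x_at can bind several transcripts. The genes and lists were chosen with earlier results of these data known. All probe sets of the set and of CCND2 were given, and the brightest ones of UGT8, CDKN2A and CDKN2B. Of each other list, at most 4 genes that differed most past 1.5-fold were named. Other genes were named after their values were seen (RBL1, RBL2, E2F5, E2F7, FOXM1, XPC, CDK2, CCNA2, CDC37, SKP2, CCNG1, MDM2, GDF15, TSPAN31, OS9, TSFM, PHLDA2, CD81, NAP1L4, CARS1, TSSC4 and KCNQ1). The role comparison was also added then. Promoter windows and their coordinates are RefSeq's, GRCh38.p14. Calculations used Python 3.11.15, pandas 2.3.3 and statsmodels 0.14.6 and were tested on simulated data.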

Additional observations from a re-analysis of the deposited data

Results flagged for a closer look

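The control RNAs added at hybridisation were not part of the comparisons and read higher on the knockdown array in all 18 of their probe sets, by 0.21 to 0.66 with a median of 0.51. The M27830 control probe sets, which read ribosomal RNA, were higher by a median of 0.78 (0.091, 0.78 and 0.97), against a median of 0.028 over all genes past the floor.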

How the results depend on the processing

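Results were recomputed with other floors, other ways of reading a gene from its probe sets, without probe sets marked _s_at or _x_at, and with 4 centrings; the mean over probe sets past the floor was chosen after seeing the data. At 2-fold, 0 of the 9 genes stood out, against 2.28% of all genes. Averaging all probe sets gave -2.10 for UGT8. Centred on the hybridisation controls, 1 gene lay above 0, the median of the set was -0.53 and UGT8 differed by -2.85, which follows from the 0.51 subtracted. No other setting moved the count past 1.5-fold, the count above 0 or the role gap beyond the limits used, which were 1.5 times the count or the median SD between probe sets. Over the 8 settings that could move a single gene, CDK4 stayed between 0.16 and 0.67 and CDKN1C between -1.27 and -0.72. CCND1 changed sign under each of 3 ways of combining its probe sets (0.016 to 0.036). CCND3 was 0.089 with its dim probe set averaged in. No replicate could be left out, since each group holds 1 array.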

Other observations

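The other cyclin genes lay on both sides of 0. Of 15 past the floor, none was 1.5-fold higher and 2 were 1.5-fold lower on the deposited scale, against 4.96% and 6.74% of all genes. CCNG2, a cyclin that is high in resting cells, went from 10.06 to 9.03 (-1.03) in its brightest probe set, though 2 dim ones of its 5 were above 0. CCNA1, the germ cell cyclin A, went from 7.43 to 6.54 (-0.89). CCNG1, a p53 target, differed by -0.55, and all 5 of its probe sets were below 0. Of 15 other cyclin-dependent kinase genes, 1 differed by 1.5-fold, CDK3 (7.82 and 7.16), against 11.7% of all genes, and the median was -0.11 on the deposited scale. CDK4 was thus the kinase gene with the largest positive difference among those read here.

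CDKN1A was near 0, and so were several other p53 targets, while a few were lower. Of 17 genes of the p53 list past the floor, 1 was at least 1.5-fold higher and 4 lower on the deposited scale, against 4.96% and 6.74% of all genes, with a median of -0.090. MDM2, the p53 ligase, read 7.32 and 7.23, and GDF15 read 11.62 and 11.75. The apoptosis gene BBC3 differed by -1.07, TP53INP1 by -0.94 (its other probe set by -0.058), the p53 inhibitor gene MDM4 by -0.91 and XPC by -0.70. TP53I3 went from 6.59 to 7.69 (1.11) and stayed at least 1.5-fold higher on the hybridisation scale.

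Genes around CDKN1C and CDK4 were read from lists of neighbours. CDKN1C lies in an imprinted domain with SLC67A1 (formerly SLC22A18) and PHLDA2. SLC67A1 was lower, at 8.85 and 8.14 (-0.71), close to the -0.76 of CDKN1C. Its antisense transcript SLC67A1-AS was higher on the deposited scale, at 7.26 and 7.88 (0.62, or 0.11 on the hybridisation scale), each read by 1 probe set. PHLDA2 (0.12), NAP1L4 (0.29), TSSC4 (0.16), CD81 (0.048), CARS1 (-0.16) and KCNQ1 (-0.14) differed by less than 1.5-fold. Beside CDK4, METTL1 went from 7.32 to 7.94 (0.62) in its 1 probe set, and TSFM differed by 0.34. TSPAN31, which overlaps CDK4 in the annotation, differed by -0.19 and OS9 by -0.32. The neighbours of CDK4 past the floor thus lay on both sides of 0 on the deposited scale.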
